A study of Homo sapiens with 5 samples.

Results

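AP-1 is a transcription factor made of a pair of basic leucine zipper (bZIP) proteins, one usually of the JUN family (JUN, JUNB, JUND) and the other of the JUN, FOS (FOS, FOSB, FOSL1, FOSL2) or ATF family. FOS, FOSB, JUN, JUNB, EGR1, ATF3 and IER2 are immediate early genes, whose short-lived mRNAs rise within minutes of a growth factor or stress signal without new protein synthesis. FOSL1, FOSL2 and JUND are the slower or steadier members of the same system. These 10 genes were chosen by symbol from the 26485 genes of the deposited count table, and all 10 passed the filter on low counts that kept 14187 genes for testing.

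The counts came from poly-A RNA of RPE1, a telomerase-immortalized human cell line derived from retinal pigment epithelium, with the genotype given as WT in all libraries. Cells were given DMSO, the solvent control (2 libraries), 0.2 μM doxorubicin (2 libraries) or 0.34 μM doxorubicin (1 library) for 18 h. Doxorubicin intercalates into DNA and poisons topoisomerase II, which leaves DNA double-strand breaks. The concentrations are those of the sample characteristics, whereas the treatment text writes the same digits as if nanomolar values had been given in micromolar. The comparison asks how the mRNAs of AP-1 and its partners differed between doxorubicin-treated and control cells at this time. As the libraries are bulk samples at 1 time, a change in the kinds of cells present and a change of RNA per cell cannot be told apart, and an early, passing response was not measured.

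Gene counts summed to between 23773061 and 36725345 per library. Of the markers of retinal pigment epithelium, MITF (29.1 to 56.7 CPM, counts scaled to the library total) and OTX2 (23.5 to 29.4 CPM) were present, while 6 of 12, among them RPE65 and RLBP1, were under 1 CPM in every library. VIM, a mesenchymal marker, was at 4711 to 5805 CPM, and the summed CPM of 7 blood and endothelial markers was 0.381 to 5.53. Of 6 epithelial markers, KRT8 (346 to 661 CPM) and KRT18 (238 to 515 CPM) were present, and 3 stayed under 1 CPM throughout. Replicate 2 differed widely from replicate 1 both in DMSO and in 0.2 μM doxorubicin. Per degree of freedom, the chi-square of the counts was 117 between the DMSO libraries and 75.3 between the 0.2 μM libraries, but 9.01 between replicate 1 at 0.2 μM and the 0.34 μM library. DMSO and doxorubicin libraries were not compared with each other in this way. By the study's PCA, most variance among samples lay between control and doxorubicin. Several of the 10 genes followed the split between replicates, so their values are given library by library.

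FOSL1 was the one gene of the 10 that changed past the threshold, and it fell in doxorubicin. ATF3 and JUND were higher in every doxorubicin library than in every DMSO library, but their adjusted p missed 0.01. FOS, FOSB and EGR1 differed far more between replicates of one condition than between conditions. With edgeR's quasi-likelihood test on 3 doxorubicin against 2 DMSO libraries, 1 of 10 genes passed an adjusted p of 0.01, against 4.02% of all genes tested. In that direction, lower in doxorubicin, 2.73% of all genes passed, and 1.29% passed as higher. The count was also 1 of 10 with limma voom (3.71% of all genes tested) and with the size factors of DESeq2 in edgeR (3.98%). The median log2 fold change of the 10 genes was -0.0047 and that of all genes tested was 0.013. The groups did not overlap in 3 of 10 genes, where 47.7% of all genes tested had groups that did not overlap. Of these 3, JUND and ATF3 were higher in doxorubicin (24.3% of all genes tested) and FOSL1 was lower (23.4%).

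**Figure D1:**
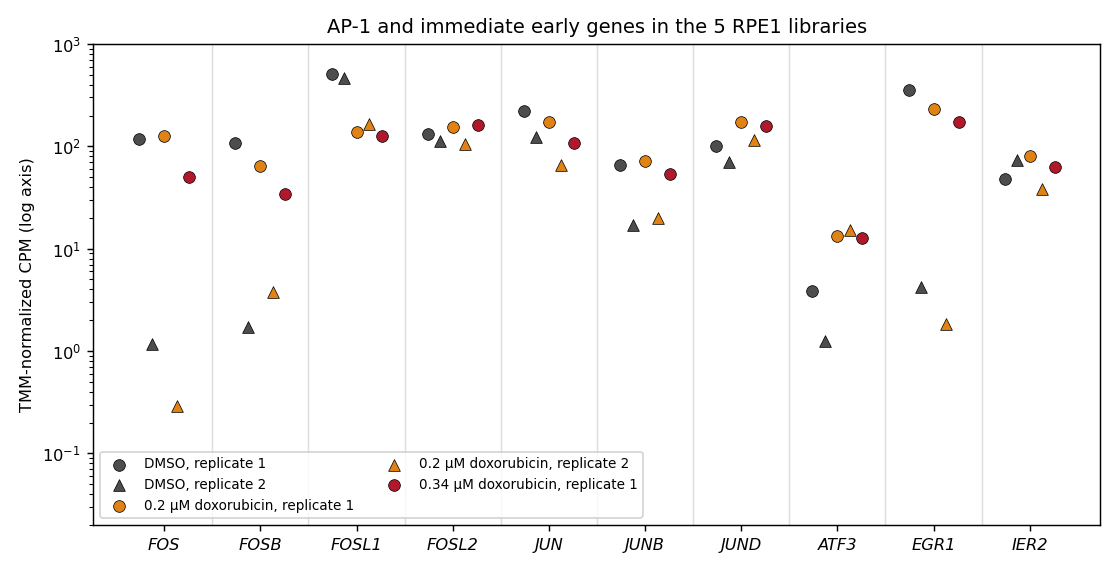
CPM of the 10 genes in each of the 5 libraries, on a log axis, with 1 point per library marked by its condition and replicate number. FOSL1 is lower and ATF3 and JUND are higher in the doxorubicin libraries, while the replicate 2 points of FOS, FOSB and EGR1 lie far below the others in both conditions.

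FOSL1 encodes FRA-1, a FOS-family protein that lacks the activation domain of FOS, dimerizes with JUN proteins and is stabilized by ERK signalling. The gene lies on chromosome 11 (GRCh38.p14, chr11:65892049-65900545) and overlaps no other annotated gene. FOSL1 mRNA was at 509 and 466 CPM in the DMSO libraries, at 139 and 166 CPM in the 0.2 μM libraries and at 128 CPM in the 0.34 μM library. All 3 doxorubicin libraries were thus below both DMSO libraries by a margin wider than the spread within either group (488 ± 30.2 CPM, SD, n = 2, against 144 ± 19.6 CPM, SD, n = 3). The log2 fold change was -1.76 (SE 0.17), with an adjusted p of 0.00186 by edgeR and 4.21e-18 by DESeq2. Leaving out single libraries kept the log2 fold change between -1.87 and -1.68. How many of all genes passed in these smaller fits was not computed. The edgeR call was lost without DMSO replicate 1 (adjusted p = 0.0101), DMSO replicate 2 (0.0132), 0.2 μM replicate 1 (0.0126) or the 0.34 μM library (0.0109), and it held without 0.2 μM replicate 2 (0.00683). Each dose on its own gave a similar size but missed the threshold in edgeR, at -1.68 (SE 0.23, adjusted p = 0.0124) for 0.2 μM and -1.93 (SE 0.30, adjusted p = 0.0246) for 0.34 μM.

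FOSL2 encodes FRA-2, the other FOS-family protein without a strong activation domain. FOSL2 was at 133 and 112 CPM in DMSO, at 155 and 106 CPM at 0.2 μM and at 162 CPM at 0.34 μM. The groups overlapped, and the log2 fold change of 0.20 (SE 0.22) had an adjusted p of 0.590 by edgeR. The gene (chr2:28392858-28417317) overlaps the antisense gene FOSL2-AS1, which was not analysed here.

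FOS and FOSB encode the short-lived, strongly activating FOS proteins. FOS (chr14:75278828-75282230) was at 118 and 1.18 CPM in DMSO, at 127 and 0.291 CPM at 0.2 μM and at 50.3 CPM at 0.34 μM. The second library of each replicated condition was thus low, resting on 30 counts in DMSO and 7 counts at 0.2 μM, where the other libraries held 1825 to 3285 counts. FOSB (chr19:45467996-45475179) was at 108 and 1.72 CPM in DMSO, at 64.9 and 3.74 CPM at 0.2 μM and at 34.5 CPM at 0.34 μM, with the same 2 libraries low. Between doxorubicin and DMSO, the log2 fold change by edgeR was -0.01 (SE 1.87, adjusted p = 0.999) for FOS and -0.67 (SE 1.45, adjusted p = 0.794) for FOSB. In this fit, an SE of this size leaves even a change of several fold by doxorubicin undetectable in these genes. The SE was smaller in a fit of the DMSO and 0.2 μM libraries with the replicate number as a block. There the log2 fold change was -0.35 (SE 0.34) for FOS and 0.012 (SE 0.32) for FOSB.

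JUN encodes the JUN-family protein that is activated by the stress kinase JNK. JUN (chr1:58780791-58784047) was at 220 and 124 CPM in DMSO, at 172 and 65.7 CPM at 0.2 μM and at 109 CPM at 0.34 μM. The groups overlapped, since replicate 1 at 0.2 μM lay between the DMSO libraries, and the log2 fold change was -0.58 (SE 0.41, adjusted p = 0.392 by edgeR).

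JUNB, whose product often opposes JUN in growth control, was at 65.5 and 17.0 CPM in DMSO, at 72.2 and 19.9 CPM at 0.2 μM and at 53.8 CPM at 0.34 μM. Both replicate 2 libraries were low in either condition, and the log2 fold change of 0.24 (SE 0.67) had an adjusted p of 0.847 by edgeR. JUNB (chr19:12791486-12793315) overlaps HOOK2, which held 162 to 414 counts in the 5 libraries against 433 to 1954 for JUNB, and whether reads were counted by strand is not stated in the methods or labels.

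JUND encodes the most steadily expressed JUN protein. JUND (chr19:18279694-18281622) was at 99.8 and 70.9 CPM in DMSO, at 171 and 114 CPM at 0.2 μM and at 158 CPM at 0.34 μM. Every doxorubicin library was above both DMSO libraries, although by little for replicate 2 at 0.2 μM. The log2 fold change was 0.79 (SE 0.24), with an adjusted p of 0.0731 by edgeR and 0.0182 by DESeq2, both above 0.01. Leaving out each library in turn gave 0.55 to 1.06, with an adjusted p of 0.0481 to 0.233 by edgeR.

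ATF3 encodes a stress-induced bZIP protein of the ATF family, a repressor as a homodimer, whose gene is also a known target of p53. ATF3 (chr1:212565407-212620777) was at 3.89 and 1.25 CPM in DMSO, at 13.4 and 15.3 CPM at 0.2 μM and at 12.8 CPM at 0.34 μM. The 3 doxorubicin libraries lay close together (346 to 465 counts), whereas the DMSO libraries held 102 and 32 counts and differed from each other 3.10-fold (95% exact interval 2.07 to 4.77, counting error only). Its log2 fold change of 2.42 (SE 0.47) was the largest of the 10 genes, with an adjusted p of 0.0200 by edgeR and 4.98e-07 by DESeq2. ATF3 therefore passed 0.01 in DESeq2, and not in edgeR. In DESeq2 2 of 10 genes passed against 14.1% of all genes tested, ATF3 as higher (6.37% of all genes) and FOSL1 as lower (7.72%). Without a filter on low counts its adjusted p by edgeR was 0.00414, and 2 of 10 genes and 4.92% of all genes then passed. Leaving out each library gave 1.81 to 3.45 by edgeR, and without DMSO replicate 1 the adjusted p was 0.00763.

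EGR1 encodes a zinc-finger transcription factor induced through the ERK kinases and SRF, the same route as FOS. EGR1 (chr5:138465479-138469303) was at 355 and 4.27 CPM in DMSO, at 232 and 1.83 CPM at 0.2 μM and at 172 CPM at 0.34 μM. As for FOS, the replicate 2 libraries held few counts (109 and 44, against 5999 to 9300), and the log2 fold change of -0.41 (SE 1.78) had an adjusted p of 0.903 by edgeR. With the replicate block, in the DMSO and 0.2 μM libraries, it was -0.84 (SE 0.25, adjusted p = 0.0269 by edgeR), above 0.01.

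IER2 encodes a nuclear protein of the immediate early response. IER2 (chr19:13150411-13154911) was at 48.1 and 74.3 CPM in DMSO, at 81.3 and 38.7 CPM at 0.2 μM and at 63.2 CPM at 0.34 μM. It was the only one of the 10 genes that was higher in replicate 2 of DMSO. Its groups overlapped, with a log2 fold change of -0.0028 (SE 0.33, adjusted p = 0.996 by edgeR).

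**Figure D2:**
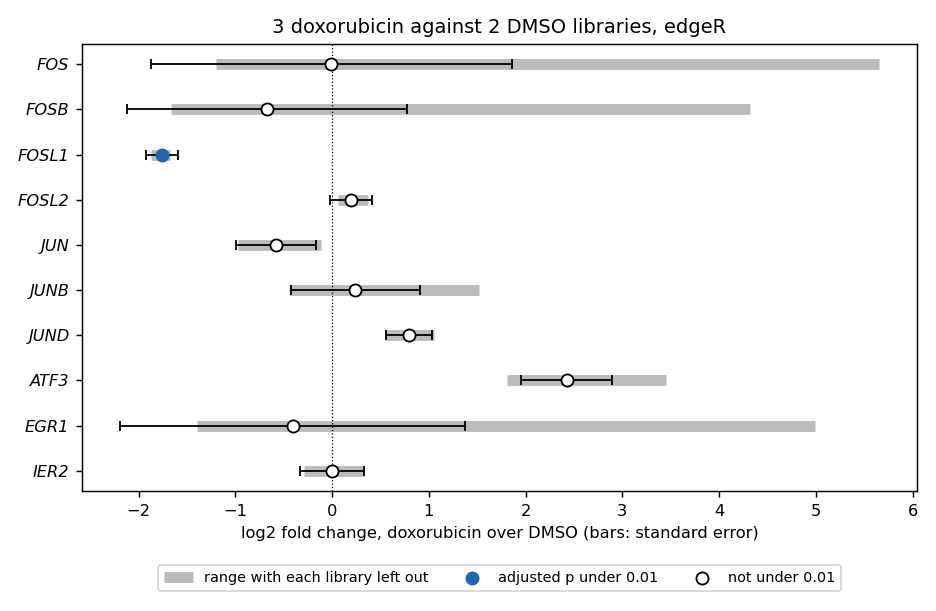
Log2 fold change of each gene in 3 doxorubicin against 2 DMSO libraries by edgeR (points, bars ± 1 standard error), with the range of values when each library was left out in turn (grey) and filled points for an adjusted p under 0.01. FOSL1 is the one filled point and has a narrow range (-1.87 to -1.68), whereas FOS (-1.19 to 5.65), FOSB (-1.66 to 4.32) and EGR1 (-1.40 to 4.99) range over both signs.

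Between the doses, 0.34 μM minus 0.2 μM, the log2 difference of the 10 genes ran from -0.34 (FOS, SE 2.54) to 0.56 (EGR1, SE 2.34), and for FOSL1 it was -0.25 (SE 0.28). By edgeR 0 of 10 genes passed, against 0% of all genes tested, and 0 of 10 had an unadjusted p under 0.05 in edgeR, DESeq2 or limma voom. Over all genes tested, 22 had an unadjusted p under 0.05 by edgeR. As so few of all genes had an unadjusted p under 0.05, the comparison could show little for the 10 genes. The 0.34 μM dose had 1 library, which was assumed to vary as the other conditions did. Per degree of freedom, the chi-square of its counts was 9.01 with replicate 1 at 0.2 μM and 74.1 with replicate 2. A difference between the doses therefore cannot be told apart from the split by replicate number. EGR1 was at 172 CPM at 0.34 μM, against 232 and 1.83 CPM at 0.2 μM. The DMSO libraries are shared by the values of both doses. At 0.2 μM 0 of 10 genes passed in edgeR (1.21% of all genes tested) and at 0.34 μM 0 of 10 (0.627%), with 3 of 10 at an unadjusted p under 0.05 at either dose (19.3% of all genes tested at 0.2 μM and 17.8% at 0.34 μM). In DESeq2 2 of 10 passed at each dose (6.57% and 5.52% of all genes tested), and in limma voom 0 of 10 (1.09% and 0.648%).

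The split by replicate number was largest in FOS and EGR1. In DMSO, FOS was 100-fold higher in replicate 1 than in replicate 2 (95% exact interval 70.1 to 149), and at 0.2 μM it was 436-fold higher (212 to 1086). For EGR1 the ratios were 83.1 (68.8 to 101) in DMSO and 127 (94.3 to 175) at 0.2 μM. For FOSB they were 62.7 (46.6 to 86.5) and 17.4 (14.03 to 21.7). These intervals cover counting error only, and the pattern is a description that was noticed in these libraries and has no test. JUNB showed a smaller split in the same direction, of 3.86-fold in DMSO and 3.63-fold at 0.2 μM. JUN was also higher in replicate 1, 1.77-fold in DMSO and 2.61-fold at 0.2 μM. FOSL1 (1.09-fold and 0.836-fold) differed little between replicates, and JUND (1.41-fold and 1.502-fold) and FOSL2 (1.18-fold and 1.46-fold) somewhat more. ATF3 and IER2 did not keep one direction in the 2 conditions.

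Ranked over all 14187 genes by how far both replicate 2 libraries lay below the lowest of the other 3 on the log2 CPM scale, FOS was first (a gap of 5.34) and EGR1 second (5.31), with FOSB at rank 29 (3.18) and JUNB at rank 172 (1.43). The gap was at least 4-fold for 3 of 10 genes, against 0.705% of all genes tested. Both replicate 2 libraries were below the other 3 by any margin in 5 of 10 genes, against 14.2% of all genes tested. Of 30 other immediate early genes tested, 13 lay below in this way, but 0 of them by at least 4-fold. In the opposite direction, 0 of the 10 genes and 0.0846% of all genes tested lay at least 4-fold above in both replicate 2 libraries. SRF, the factor that binds the promoters of FOS and EGR1, was among these 13, at 114 and 60.6 CPM in DMSO, 113 and 59.6 CPM at 0.2 μM and 109 CPM at 0.34 μM, and so was DUSP1, at 108, 37.6, 122, 56.7 and 95.6 CPM in the same order (both named after their values were seen). Among 31 kinases and transcription factors upstream of AP-1, SRF included, 4 lay below in both replicate 2 libraries, against 14.2% of all genes tested. Of 6 mesenchymal markers, 4 lay below in both replicate 2 libraries, and VIM and COL1A2 did not. Their summed CPM was 15627 and 16945 in the replicate 2 libraries and 25057 to 26300 in the other 3, mostly through FN1, which was at 9080 and 11510 CPM in the former and 19193 to 19659 CPM in the latter. Of 10 heat shock and handling genes, 3 lay below and 2 above the other 3 libraries in both replicate 2 libraries. The part of these in the split of FOS, FOSB and EGR1 was not tested.

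**Figure D3:**
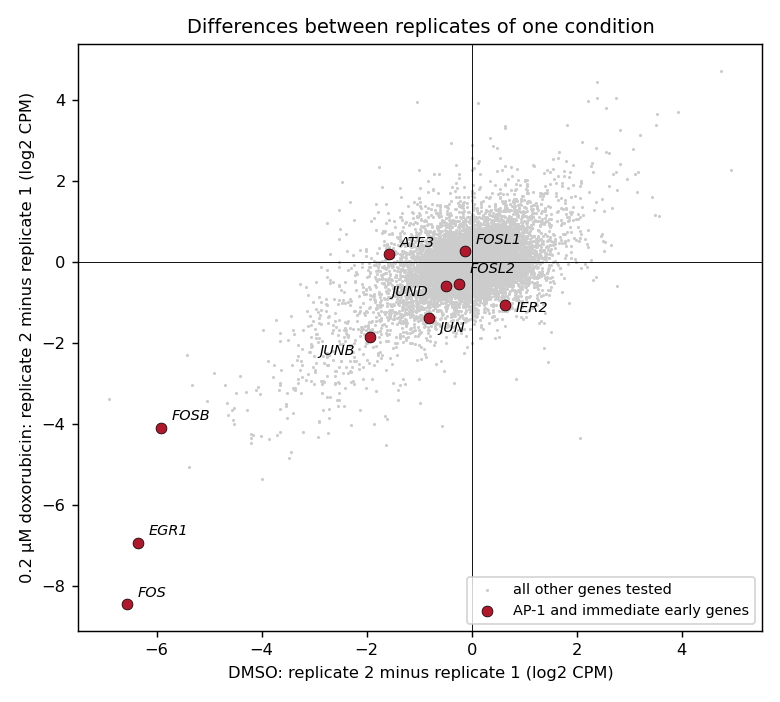
Difference of replicate 2 minus replicate 1 on the log2 CPM scale in DMSO (horizontal axis) and in 0.2 μM doxorubicin (vertical axis), with 1 grey point per gene tested and the 10 genes in red. FOS, EGR1 and FOSB lie at the far lower left, below nearly all other genes in both conditions, and JUNB lies on the same side at a smaller distance.

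The promoters of these 3 genes are shown for the split they share, and those of JUND and ATF3 for their large differences. Each is the 250 bases before the RefSeq start site on GRCh38.p14, 5′ to 3′ on the gene's strand, and capitals mark motifs found on either strand. The motifs searched were the cAMP response element (CRE, TGACGTCA), the AP-1 site (TGANTCA), the CArG box bound by SRF, the EGR site (GCGTGGGCG or GCGGGGGCG) and the TATA box (TATAAA).
FOS: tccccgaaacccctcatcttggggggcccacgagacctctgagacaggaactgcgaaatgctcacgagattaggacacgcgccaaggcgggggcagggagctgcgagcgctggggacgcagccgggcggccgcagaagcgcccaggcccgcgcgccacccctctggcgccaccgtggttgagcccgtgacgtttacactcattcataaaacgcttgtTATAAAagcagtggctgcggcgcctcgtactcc
FOSB: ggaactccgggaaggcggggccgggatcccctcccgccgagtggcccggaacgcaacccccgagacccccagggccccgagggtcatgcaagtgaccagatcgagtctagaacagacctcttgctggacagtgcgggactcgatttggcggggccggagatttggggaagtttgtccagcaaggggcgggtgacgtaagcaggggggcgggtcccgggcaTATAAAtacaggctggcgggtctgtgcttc
EGR1: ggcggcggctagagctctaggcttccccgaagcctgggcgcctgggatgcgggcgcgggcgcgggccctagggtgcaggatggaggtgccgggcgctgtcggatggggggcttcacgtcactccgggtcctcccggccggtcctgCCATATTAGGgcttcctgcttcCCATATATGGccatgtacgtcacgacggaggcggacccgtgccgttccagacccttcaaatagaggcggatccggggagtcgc
JUND: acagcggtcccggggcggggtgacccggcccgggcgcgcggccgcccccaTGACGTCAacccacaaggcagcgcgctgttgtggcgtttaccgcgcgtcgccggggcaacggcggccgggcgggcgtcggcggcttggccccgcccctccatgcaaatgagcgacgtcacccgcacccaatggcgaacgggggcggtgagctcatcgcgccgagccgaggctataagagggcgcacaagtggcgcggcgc
ATF3: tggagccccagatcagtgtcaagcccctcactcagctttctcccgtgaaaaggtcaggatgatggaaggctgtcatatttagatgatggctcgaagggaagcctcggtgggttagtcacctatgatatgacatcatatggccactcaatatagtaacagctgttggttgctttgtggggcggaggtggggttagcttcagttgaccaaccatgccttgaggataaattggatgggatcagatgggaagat
EGR1 (chr5:138465229-138465478, plus strand) held 2 CArG boxes, at -105 to -96 and at -83 to -74 from the start site. FOS (chr14:75278578-75278827, plus strand) held a TATA box at -33 and FOSB (chr19:45467746-45467995, plus strand) one at -30. JUND (chr19:18281623-18281872, minus strand) held a CRE at -200 to -193. ATF3 has 2 start sites in the table. The window of the upstream one (chr1:212565157-212565406, plus strand, shown) held none of these letters, and that of the other held TATAAA at -230. Over all 35116 promoter windows the share was 1.65% for the CRE, 6.57% for the AP-1 site, 1.16% for the CArG box, 5.37% for the EGR site and 10.7% for the TATA box. Of the 10 windows of the 9 matched genes, 1 held a CRE, 1 a CArG box and 4 the letters TATAAA, that of ATF3 at -230. None held an AP-1 or EGR site in these 250 bases. FOSL1 was not matched. A match is a run of letters and not a shown binding site.

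Without both replicate 2 libraries, an alternative chosen after the data were seen, 7 of 10 genes passed by edgeR, but so did 43.1% of all genes tested. This comparison sets the 2 remaining doxorubicin libraries, which were very alike, against 1 DMSO library, so that the spread came from that doxorubicin pair alone. FOSL1 (log2 fold change -1.94), ATF3 (1.74) and JUND (0.72) kept their directions. EGR1 (-0.82), FOSB (-1.14), JUN (-0.66) and IER2 (0.58) passed in this comparison and not in that of all libraries. FOS (-0.43, adjusted p = 0.182 by edgeR), JUNB (-0.07, adjusted p = 0.686) and FOSL2 (0.25, adjusted p = 0.0333) did not pass.

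Levels were compared between genes per kilobase of exon (RPKM), with exon lengths merged over all transcripts. In DMSO, FOSL1 was the most abundant of the 10 mRNAs at a mean of 258 RPKM, above EGR1 (57.2), JUN (47.5), JUND (44.3), JUNB (22.5), IER2 (19.9), FOS (18.7), FOSL2 (17.1), FOSB (9.89) and ATF3 (0.643). The ranges over libraries of neighbours in this order overlapped, other than those of FOSL1 with EGR1 and of JUND with JUNB. In doxorubicin the order was JUND (76.7), FOSL1 (76.3), EGR1 (43.2), JUN (31.8), JUNB (26.6), IER2 (19.8), FOSL2 (19.7), FOS (18.6), FOSB (6.19) and ATF3 (3.46), and the ranges of all neighbours overlapped. FOSL1 thus went from well above every other gene in DMSO to the level of JUND in doxorubicin.

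Within the FOS family, the summed level was 345 and 263 RPKM in DMSO, 147 and 103 RPKM at 0.2 μM and 112 RPKM at 0.34 μM. FOSL1 made up 78.2% and 93.8% of this sum in DMSO, 50.1% and 85.0% at 0.2 μM and 60.2% at 0.34 μM, so that its share overlapped between the groups although its level did not. The share of FOSL2 was 5.39% and 5.96% in DMSO, 14.7% and 14.3% at 0.2 μM and 20.2% at 0.34 μM, without overlap. Its level did overlap, at 18.6 and 15.7 RPKM in DMSO and 14.7 to 22.6 RPKM in doxorubicin, while the summed level of the family did not. FOS ranged from 0.0884% to 27.2% over the 5 libraries.

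Within the JUN family, the summed level followed the replicate number, at 148 and 80.3 RPKM in DMSO, 176 and 88.1 RPKM at 0.2 μM and 141 RPKM at 0.34 μM. The share of JUN was 40.9% and 42.7% in DMSO, 27.0% and 20.6% at 0.2 μM and 21.2% at 0.34 μM. JUND made up 34.9% and 45.7% in DMSO, 50.6% and 67.1% at 0.2 μM and 58.0% at 0.34 μM. In every doxorubicin library JUN was thus a smaller part and JUND a larger part of the family's mRNA than in either DMSO library (JUN 41.8% ± 1.28, SD, n = 2, against 22.9% ± 3.53, SD, n = 3). JUNB, at 11.5% to 24.2%, overlapped between the groups. These shares describe mRNA, have no test, and depend on the gene lengths used. With coding length in place of exon length, the share of JUN (41.3%) was slightly above that of JUND (41.0%) in 0.2 μM replicate 1, and the share of FOSL2 was 13.4% and 15.6% in DMSO and 30.8% to 40.3% in doxorubicin.

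**Figure D4:**
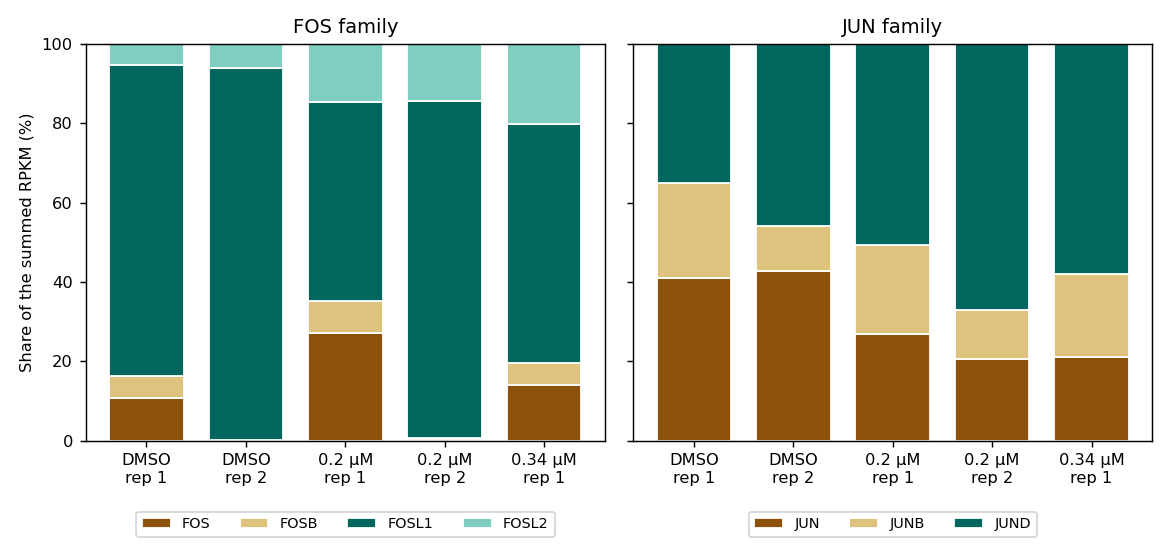
Share of each gene in the summed RPKM of the FOS family (left) and of the JUN family (right), in percent, as 1 stacked bar per library. FOSL1 fills most of the FOS family bars in DMSO (78.2% and 93.8%), and JUND is the largest part of the JUN family in all 3 doxorubicin libraries (50.6% to 67.1%) with these exon lengths, though not in 0.2 μM replicate 1 with coding lengths.

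The genes around AP-1 were described by lists compiled from general knowledge. Of all genes tested, 4.02% passed by edgeR, 30.8% had an unadjusted p under 0.05 in edgeR and 7254 of 14187 had a log2 fold change above 0. By DESeq2 14.1% passed, 6.37% higher and 7.72% lower. Of 15 other bZIP partners tested, 1 rose and none fell by edgeR, with a median log2 fold change of -0.024. The one that rose was MAFK, a small MAF protein without an activation domain, from 15.9 ± 1.55 (SD, n = 2) to 44.1 ± 8.63 CPM (SD, n = 3), a log2 fold change of 1.48 (SE 0.22, adjusted p = 0.00861 by edgeR). Its call was lost when any 1 library was left out, but the share of all genes passing in those fits was not computed.

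Of 31 kinases and transcription factors upstream of AP-1 (the ERK, JNK and p38 cascades, SRF and its cofactors), 0 passed by edgeR, 12 had an unadjusted p under 0.05, and 6 passed by DESeq2 (2 higher, 4 lower), against 30.8% and 14.1% of all genes tested. Their median log2 fold change was -0.14, with 10 above 0 and 21 below.

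A further list held 17 genes linked to the inhibition, stability or turnover of AP-1, EGR or related factors or their mRNAs. Of these, 1 rose and 1 fell by edgeR, with a median of -0.062. SIK1, a kinase that restrains the CREB coactivators, rose from 290 ± 24.9 (SD, n = 2) to 922 ± 65.5 CPM (SD, n = 3), a log2 fold change of 1.67 (SE 0.17, adjusted p = 0.00221 by edgeR). Its near-identical annotated copy SIK1B makes the counts of SIK1 uncertain. HNRNPD, a protein (AUF1) that binds AU-rich elements of short-lived mRNAs such as that of FOS, fell from 417 ± 47.5 (SD, n = 2) to 170 ± 14.1 CPM (SD, n = 3), a log2 fold change of -1.30 (SE 0.16, adjusted p = 0.00422 by edgeR). Both calls were lost when any 1 library was left out, in fits whose share of all genes passing was not computed.

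Of 30 other immediate early genes tested (32 listed), 2 rose and none fell by edgeR, with 22 above 0, a median of 0.27 and 6 passing by DESeq2 (5 higher, 1 lower), against 14.1% of all genes tested (6.37% higher, 7.72% lower). BTG2, an antiproliferative gene and a known target of p53, was at 8.93 and 6.85 CPM in DMSO, at 73.3 and 111 CPM at 0.2 μM and at 88.5 CPM at 0.34 μM. It rose by 3.53 on the log2 scale (SE 0.26, adjusted p = 0.000912 by edgeR), and the call held in 4 of 5 fits with 1 library left out. IER5, a regulator of the heat shock factor HSF1, rose from 46.5 ± 0.73 (SD, n = 2) to 127 ± 12.4 CPM (SD, n = 3), a log2 fold change of 1.45 (SE 0.15, adjusted p = 0.00273 by edgeR), and its call held in 1 of 5 such fits. The 2 genes that rose differed from FOS, FOSB and EGR1 in their replicates, since neither was lower in both replicate 2 libraries. A gene split as FOS was could hardly pass in this fit, so this difference follows from how the 2 were picked.

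Of 21 AP-1 target genes tested (28 listed), 1 rose and none fell by edgeR, with a median of 0.0058 and 3 passing by DESeq2 (2 higher, 1 lower). Of 10 heat shock and handling genes, 0 passed by edgeR, 2 had an unadjusted p under 0.05 and 1 passed by DESeq2 (lower), against 30.8% and 14.1% of all genes tested, with a median of 0.045.

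**Figure D5:**
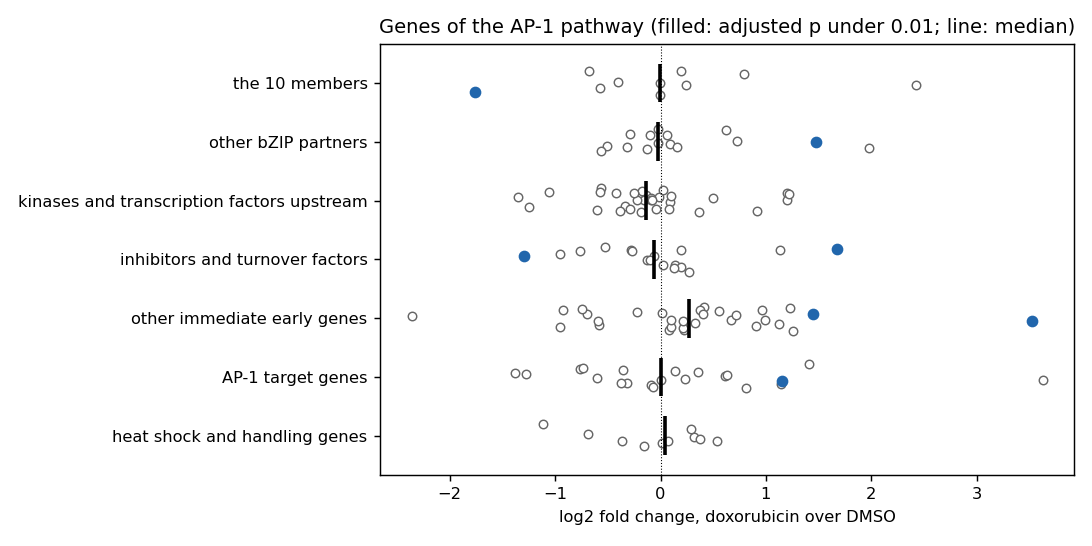
Log2 fold change of every tested gene in each list, 3 doxorubicin against 2 DMSO libraries by edgeR, with 1 point per gene, filled where the adjusted p was under 0.01, and the median of each list as a line. The medians lie between -0.14 and 0.27, near the 0.013 of all genes tested, and BTG2 (3.53) is the highest filled point.

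Some genes had nearly the same profile over the 5 libraries, measured as the Euclidean distance of centred log2 CPM among 11746 expressed genes. The nearest to FOSL1 were MPHOSPH9 (0.11) and NASP (0.22), a histone chaperone, and NASP was at 130 and 125 CPM in DMSO, 35.3 and 48.6 CPM at 0.2 μM and 38.3 CPM at 0.34 μM. CPQ (0.049) was the nearest to JUND, and to ATF3 the nearest were ADHFE1 (0.48) and HOGA1 (0.51). JUN was nearest to KLF6 (0.27), itself an immediate early gene, and FHL1 (0.28), and IER2 to CAND2 (0.22) and ADCK2 (0.23). JUNB was nearest to MYL9 (0.33), a myosin light chain, and TSLP (0.36). For the 3 genes with the widest split the nearest profiles were farther away, with BGN (1.09) and CTSZ (1.20) for FOSB, TP53I11 (1.82) and ZNF331 (2.51) for EGR1, and TP53I11 (2.73) and ZSCAN18 (3.22) for FOS. TP53I11 was at 24.3 and 0.509 CPM in DMSO, 23.2 and 0.624 CPM at 0.2 μM and 30.01 CPM at 0.34 μM, with the replicate 2 libraries low as in FOS and EGR1. FOSL2 varied by less than 1 on the log2 scale over the libraries, and no neighbours were sought.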

How the data were processed

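The deposited file holds the authors' raw counts per gene, not normalized. Per the labels and the study's methods, reads of poly-A RNA (75-base pairs, stranded kit) were mapped to hg38 with STAR and counted with featureCounts of Rsubread on the iGenomes annotation, with neither tool versions nor the strand setting given in the sources used here. A deposited table of the authors' DESeq2 fold changes and p-values was not used.

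The groups were 2 DMSO and 3 pooled doxorubicin libraries, as in the study, which calls them biological replicates. The main test was edgeR 4.0.16's quasi-likelihood test (R 4.3.3, TMM, default filter with a minimum count of 10 and total of 15), adjusted by Benjamini-Hochberg over all 14187 genes, with a threshold of 0.01. Doses were contrasts in a fit of 3 conditions. CPM were TMM-scaled, with a prior count of 2 on the log2 scale. DESeq2 1.42.0 (all genes, its own filtering), limma 3.58.1 (voom), DESeq2's size factors in edgeR, no filter, a threshold of 0.05, each dose alone, leaving out each library and a replicate block were alternatives. Gene lengths came from GENCODE v44lift37, promoters and positions from RefSeq on GRCh38.p14. From each list those past the threshold were named, at most 4 per list and each with a mean log2 CPM of 1 or more, and for each of the 10 genes spanning at least 1 on that scale the 2 nearest profiles. Promoters were to be those of the 3 largest fold changes, and those of FOS, FOSB and EGR1 were added after their values were seen. The 10 genes and the lists were chosen with earlier results of these data known. The scripts were tested on simulated data. Protein sequences were not used here. A few genes that the naming rule selects are not reported here.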

Additional observations from a re-analysis of the deposited data

How the results depend on the processing

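The log2 fold changes of FOSL1, ATF3, JUND, JUN and FOSL2 kept their sign under all 14 alternatives, whereas those of FOS, FOSB, EGR1, JUNB and IER2 did not. The threshold of 0.05, counted among the 14, cannot alter a fold change, and the others reuse the same libraries. FOSL2 ranged from 0.065 to 0.40. Of the 10 genes, 1 passed by edgeR with all libraries. This count was 2 at a threshold of 0.05, 2 in DESeq2, 2 without a filter, 7 without both replicate 2 libraries (chosen after seeing the data), 0 for each dose alone and 0 to 1 with a library left out. At 0.2 μM and at 0.34 μM alike it was 1 at a threshold of 0.05 and 2 in DESeq2, against 0. The list counts, in the order bZIP partners, upstream factors, inhibitors, other immediate early genes, AP-1 targets and heat shock genes, were 1, 0, 2, 2, 1 and 0 with all libraries. At a threshold of 0.05 they were 1, 6, 4, 5, 2 and 1, in DESeq2 1, 6, 4, 6, 3 and 1, without a filter 1, 1, 3, 4, 2 and 1, without both replicate 2 libraries 7, 15, 9, 17, 14 and 8, and for either dose alone 0, 0, 0, 1, 0 and 0. Limma voom gave 0 for the bZIP partners. The shares of all genes that passed at a threshold of 0.05, or with a library left out, were not computed. Counts under these settings therefore cannot be set against a general rate. With a library left out, the counts were 0 to 0 for the bZIP partners and the inhibitors, 0 to 2 for the other immediate early genes and 0 to 1 for the AP-1 targets.

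The log2 fold change of FOS was 0.23 in limma voom, 0.020 without a filter, 0.10 at 0.2 μM alone and -1.19 to 5.65 with a library left out. FOSB was at 0.61 in limma voom and -1.66 to 4.32 with a library left out, and EGR1 at 0.18 and -1.40 to 4.99. JUNB was at -0.065 without both replicate 2 libraries and -0.44 to 1.52 with a library left out. IER2 was at 0.0024 without a filter, 0.58 without both replicate 2 libraries, 0.047 at 0.34 μM alone and -0.29 to 0.33 with a library left out. The highest values of FOS, FOSB and EGR1 came from leaving out DMSO replicate 1, which leaves the low DMSO library as the only control. With coding length in place of exon length, the share of JUN in its family was 57.8% in DMSO and 36.1% in doxorubicin. The cause of the other differences between settings was not tested.

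The labels give a number to the second library of DMSO and of 0.2 μM, but do not say that the libraries share a batch or day, and there are only 2 pairs. The difference of replicate 2 minus replicate 1 correlated between DMSO and 0.2 μM with r = 0.528 over 14187 genes, which are not independent replicates. With the replicate block (DMSO and 0.2 μM libraries), 8.99% of all genes tested and 2 of the 10 genes passed, FOSL1 (-1.68, adjusted p = 1.88e-05 by edgeR) and ATF3 (2.63, adjusted p = 5.85e-05). Above 0.01 with the block were EGR1 (-0.84, SE 0.25, adjusted p = 0.0269 by edgeR), JUND (0.74, SE 0.22, 0.0277) and JUN (-0.63, SE 0.23, 0.0705). FOS (-0.35), FOSB (0.012), FOSL2 (0.067), JUNB (0.19) and IER2 (-0.086) had an adjusted p of 0.551 to 0.989 by edgeR. The list counts with the block were 2, 2, 3, 7, 5 and 1 in the order above. Counts of 7 and 30 leave FOS in the replicate 2 libraries with little depth, and ATF3 in DMSO replicate 2 rests on 32 counts.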

Other observations

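The genes that stood next to FOS and EGR1 in the split by replicate number were not immediate early genes. Behind these 2, the largest gaps between both replicate 2 libraries and the lowest of the other 3 were those of TP53I11 (5.06 on the log2 CPM scale), ZSCAN18 (3.995), CDCP1 (3.99), CTSZ (3.94), BGN (3.72), GALC (3.61), PCDHGB5 (3.61) and GSTM3 (3.56). In all, 100 genes lay at least 4-fold below in both replicate 2 libraries and 12 genes at least 4-fold above. BGN, the matrix proteoglycan biglycan, was at 93.3 and 3.68 CPM in DMSO, at 67.4 and 4.82 CPM at 0.2 μM and at 64.6 CPM at 0.34 μM. In the opposite direction, PLXNA4, a semaphorin receptor, was at 9.65 and 261 CPM in DMSO, at 2.55 and 69.0 CPM at 0.2 μM and at 2.62 CPM at 0.34 μM. GPR143, a receptor of pigment cells, was at 2.21 and 21.0 CPM in DMSO, at 3.33 and 29.6 CPM at 0.2 μM and at 3.28 CPM at 0.34 μM. These genes were chosen for this pattern, which has no test here.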
